A study of Mus musculus with 10 samples.

Results

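The genes described here are 9 components and targets of the Nodal pathway, taken by symbol from a fixed list: the ligand Nodal, the co-receptor Tdgf1, the receptor Acvr2b, the antagonists Lefty1 and Lefty2, the signal transducers Smad2 and Smad3, and the inhibitors Smad7 and Skil. All 9 were found among the 31053 genes of the deposited count files, and all 9 passed the filter on low counts that left 11215 genes for testing. The cells were E14, a blastocyst-derived line of mouse embryonic stem (ES) cells, stably transfected with an Esrrb construct that doxycycline (DOX) switches on. Esrrb is an orphan nuclear receptor that helps to sustain naive pluripotency. Cells of the first group (2iL, n = 4 libraries) were cultured in N2B27, a serum-free medium, with LIF, a cytokine, and with inhibitors of GSK3 (3 µM CHIR99021) and of MEK (1 µM PD0325901). For the other groups the inhibitors and LIF were taken away and cells were collected 96 h later, either without DOX (n = 3) or with DOX (n = 3). Cells of all 3 groups carried the construct and grew on gelatin. No library of 2iL with DOX or of a line without the construct was analysed here, so an effect of DOX itself and an effect of Esrrb cannot be told apart. Titles place the libraries in experiments 1 and 2, but nothing states that they came from separate cultures, so p-values measure the spread between these libraries, which may be technical.

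Nodal is a secreted ligand of the TGF-beta family that acts through type I and type II activin receptors and needs a membrane-anchored co-receptor of the EGF-CFC family. The activated receptors phosphorylate Smad2 and Smad3, which join Smad4 in the nucleus and act with partners such as Foxh1. Nodal itself, Lefty1, Lefty2, Smad7 and Skil are known targets of this signal, and all of these except Nodal restrain it. In the early mouse embryo Nodal signalling maintains the epiblast and patterns its anterior-posterior axis, and ES cells make Nodal and Lefty proteins themselves.

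Promoter windows that run from 250 bases before to 50 bases after the gene start were present for 4 of the 9 genes in the RefSeq table used (GRCm38.p6): Nodal, Tdgf1, Acvr2b and Smad3. Nodal (chr10:61417722-61418021, plus strand) and Tdgf1 (chr9:110946109-110946408, minus strand) are shown as the ligand and its co-receptor, of which Tdgf1 passed the test for DOX against no DOX and Nodal did not. Both windows are written 5′ to 3′ on the strand of the gene. Capitals mark the letters GGGCGTGG, a GC-rich sequence of the kind that Klf and Sp factors bind.
Nodal: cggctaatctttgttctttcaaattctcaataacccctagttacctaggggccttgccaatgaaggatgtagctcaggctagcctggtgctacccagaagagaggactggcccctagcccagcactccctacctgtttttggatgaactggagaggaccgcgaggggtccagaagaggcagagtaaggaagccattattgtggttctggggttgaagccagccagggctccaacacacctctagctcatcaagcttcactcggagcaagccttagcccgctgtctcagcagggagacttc
Tdgf1: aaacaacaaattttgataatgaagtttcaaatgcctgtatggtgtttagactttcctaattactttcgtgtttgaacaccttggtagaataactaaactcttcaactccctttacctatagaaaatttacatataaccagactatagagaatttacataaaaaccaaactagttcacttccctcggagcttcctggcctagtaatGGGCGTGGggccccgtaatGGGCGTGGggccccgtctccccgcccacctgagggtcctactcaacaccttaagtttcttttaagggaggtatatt
The Tdgf1 window held GGGCGTGG on the given strand at 45 and again at 26 bases before the gene start, and the Nodal, Acvr2b and Smad3 windows held none. This sequence was searched only after the windows had been read. Of all 32851 windows in the table, 5.33% held it on either strand. Both strands were also searched for AATCCACA (bound by Foxh1), CAGACA and GTCTAGAC (bound by Smads) and AAGGTCA (bound by Esrrb). None of these was present in the 4 windows; they occurred in 0.855%, 21.0%, 0.213% and 4.72% of all windows, respectively.

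Reads were counted at 3′ ends of polyA RNA. The labels name no molecular identifier, so a count is a read and not a molecule. The libraries held 1253620 to 4715450 reads in genes and 12659 to 14723 detected genes. The 96 h DOX library exp1_2 was the shallowest and stood apart in makeup. There 14.8% of reads fell on Gm42418, a locus with ribosomal RNA sequence (3.39% to 6.61% in the other 9 libraries). Mitochondrial protein genes took 3.10% (0.559% to 1.27% elsewhere), and 8 fibroblast markers summed to 2106 CPM, reads scaled to library size (1.82 to 26.9 elsewhere). Most of that sum came from Col1a2 (1288 CPM) and Col1a1 (595 CPM), while Lum (0.798 CPM) and Fbn1 (7.98 CPM) were not highest there. Called differences that involve the DOX group are therefore also given without exp1_2. Reads of Esrrb amounted to between 218 and 344 CPM in 2iL. At 96 h they amounted to between 13.4 and 31.3 CPM without DOX and between 13.0 and 29.2 CPM with it. They check the construct only if it carries the gene's own 3′ end; whether it does was not stated in the labels.

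After removal of 2iL 5 of the 9 genes fell (Lefty2, Smad7, Tdgf1, Lefty1 and Nodal) and 2 rose (Skil and Acvr2b), while Smad2 and Smad3 did not pass the test. With DOX at 96 h, Smad7, Lefty2 and Tdgf1 stood higher than without DOX, and the other 6 did not pass. Against 2iL, cells at 96 h with DOX had lower Lefty2 and higher Skil and Acvr2b. Calls were made with edgeR's quasi-likelihood test at a Benjamini-Hochberg adjusted p below 0.05 over all tested genes. For comparison, 20.4% of all tested genes were called after 2iL removal (11.5% higher and 8.90% lower). With DOX against no DOX 3.10% were called (2.16% higher and 0.945% lower), and with DOX against 2iL 16.7% (9.84% higher and 6.83% lower). The median log2 fold change of the 9 genes was -1.67, 1.06 and -0.18 in these comparisons, and that of all tested genes 0.00, -0.02 and 0.02. With library totals in place of TMM scaling, the median of all genes for DOX against 2iL was 0.17 and its calls split into 1416 higher and 582 lower, in place of 1104 and 766. The comparisons share libraries: each group enters 2 of the 3. In these bulk samples, fewer cells that express a gene and less RNA per cell cannot be told apart.

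**Figure D1:**
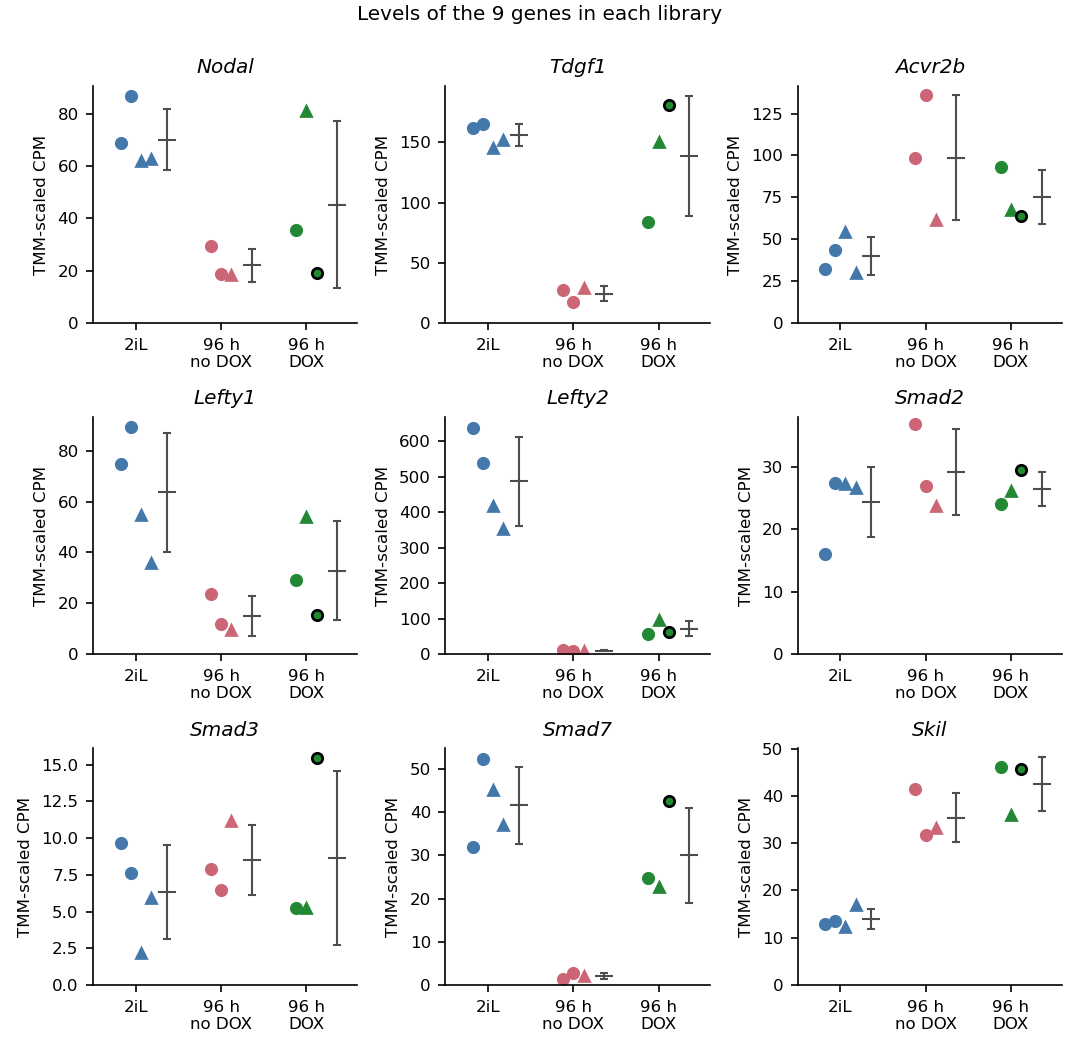
Level of each of the 9 genes (y axis, CPM scaled by the trimmed mean of M values, TMM) in each library by group (x axis); circles are experiment 1, triangles experiment 2, the black-edged circle is the DOX library exp1_2, and the grey bar is the mean ± SD. Lefty2, Smad7 and Tdgf1 were low in all 3 libraries without DOX and higher in all 3 with DOX, while Nodal and Lefty1 spread widely among the DOX libraries.

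Levels below are TMM-scaled CPM, in the order exp1_1, exp1_2, exp2_1, exp2_2 for 2iL, exp1_1, exp1_2, exp2_2 for 96 h without DOX, and exp1_1, exp2_1, exp1_2 for 96 h with DOX. Fold changes are log2 values ± SE from the edgeR fit, and gene positions are on GRCm38/mm10 (GENCODE vM21).

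Nodal (ENSMUSG00000037171, chromosome 10, 61417972 to 61425338, plus strand), the ligand, stood at 68.9, 86.9, 62.04 and 62.5 CPM in 2iL, 29.4, 18.8 and 18.2 CPM at 96 h without DOX and 35.6, 80.8 and 19.2 CPM at 96 h with DOX. Every library without DOX lay below every 2iL library, and the 3 DOX libraries ran from the level without DOX (exp1_2) to the 2iL range (exp2_1). After 2iL removal Nodal fell by 1.67 ± 0.36 log2 units (3.17-fold; adjusted p = 0.00204). With DOX against no DOX the change was 1.06 ± 0.38 (adjusted p = 0.155) and did not pass. It was 0.25 within experiment 1 and 2.15 within experiment 2, which has 1 library in each 96 h group and so no test. Without the DOX library exp1_2, which held only 26 Nodal reads, the change was 1.39 and passed (adjusted p = 0.0208). Without the DOX library exp2_1 it was 0.37 and did not pass (adjusted p = 0.664). Against 2iL, the DOX group differed by -0.60 ± 0.35 (adjusted p = 0.258), with -1.46 in experiment 1 (adjusted p = 0.0369) and 0.38 in experiment 2. The difference from 2iL was -1.31 (adjusted p = 0.0124) without the DOX library exp2_1 and -0.28 (adjusted p = 0.640) without exp1_2. Whether the experiments differ was not tested.

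Tdgf1 (ENSMUSG00000032494, chromosome 9, 110939603 to 110946158, minus strand), also called Cripto, is the EGF-CFC co-receptor through which Nodal reaches its receptors in ES cells. It stood at 162, 165, 145 and 152 CPM in 2iL, 27.3, 17.3 and 28.8 CPM at 96 h without DOX and 83.9, 150.3 and 181 CPM at 96 h with DOX. Libraries without DOX lay below all others, and the DOX libraries spread around the narrow 2iL range. Tdgf1 fell by 2.68 ± 0.28 log2 units after 2iL removal (adjusted p = 7.28e-07). With DOX it was 5.65-fold higher than without (2.50 ± 0.29, adjusted p = 3.26e-05), with 2.59 in experiment 1, 2.39 in experiment 2 and 2.26 without the DOX library exp1_2. The difference between DOX and 2iL was -0.18 ± 0.25 (adjusted p = 0.688), with a 95% interval from -0.68 to 0.32.

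Acvr2b (ENSMUSG00000061393, chromosome 9, 119402118 to 119434995, plus strand), a type II receptor for activin and Nodal, moved the other way. It stood at 32.0, 43.6, 54.1 and 29.9 CPM in 2iL, 98.7, 136 and 61.4 CPM at 96 h without DOX and 93.4, 67.6 and 64.1 CPM at 96 h with DOX. All 6 libraries at 96 h lay above the 4 in 2iL, and the groups with and without DOX overlapped. Acvr2b rose by 1.31 ± 0.28 after 2iL removal (adjusted p = 0.00189), with 1.62 in experiment 1 and 0.54 in experiment 2. DOX against no DOX gave -0.39 ± 0.30 (adjusted p = 0.589). Against 2iL the DOX group was higher by 0.92 ± 0.28 (adjusted p = 0.0307). Of the 10 fits with 1 library left out, which include those without a noDOX library outside this comparison, 4 did not make this call. They were the fits without 2iL exp1_1 (adjusted p = 0.0898), 2iL exp1_2 (0.0570), 2iL exp2_2 (0.0892) or DOX exp1_1 (0.130). It was 1.01 and passed without DOX exp1_2 (adjusted p = 0.0244), and did not pass with experiment and number as a replicate block (0.77, adjusted p = 0.0736). An antisense gene, Gm47320, overlaps Acvr2b and had 1 read over all libraries.

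Lefty1 and Lefty2 are secreted antagonists that bind Nodal and its co-receptor. They lie on the same strand of chromosome 1, 35919 bases apart. Lefty2 (ENSMUSG00000066652, chromosome 1, 180893108 to 180899103, plus strand) stood at 636, 539, 418 and 353 CPM in 2iL, 9.98, 7.12 and 9.69 CPM at 96 h without DOX and 57.5, 95.9 and 61.9 CPM at 96 h with DOX. The 3 groups did not overlap: 2iL was highest, no DOX lowest, and DOX lay between them. Lefty2 fell by 5.77 ± 0.33 log2 units after 2iL removal, 54.7-fold (adjusted p = 8.30e-10). With DOX it was 8.09-fold higher than without (3.02 ± 0.31, adjusted p = 9.13e-06), and 6.76-fold lower than in 2iL (-2.76 ± 0.27, adjusted p = 6.21e-07). Within experiments 1 and 2 the difference between DOX and no DOX was 2.83 and 3.31. Without DOX exp1_2 the differences of the DOX group were 3.10 from no DOX and -2.67 from 2iL. Each of these 3 comparisons passed in all of its 21 alternative fits.

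Lefty1 (ENSMUSG00000038793, chromosome 1, 180935022 to 180938400, plus strand) stood at 74.9, 89.2, 54.7 and 35.9 CPM in 2iL, 23.8, 11.6 and 9.40 CPM at 96 h without DOX and 29.2, 53.8 and 15.5 CPM at 96 h with DOX. The libraries without DOX lay below all 2iL libraries, whereas the DOX libraries overlapped both other groups, with exp2_1 highest and exp1_2 lowest, as for Nodal. Lefty1 fell by 2.10 ± 0.41 log2 units after 2iL removal (adjusted p = 8.60e-04). DOX against no DOX gave 1.17 ± 0.43 (adjusted p = 0.167), with 0.41 in experiment 1 and 2.52 in experiment 2. The value was 1.47 without DOX exp1_2 (adjusted p = 0.0559) and 0.65 without DOX exp2_1 (adjusted p = 0.526). Against 2iL the DOX group differed by -0.92 ± 0.39 (adjusted p = 0.116), and by -1.82 in experiment 1 (adjusted p = 0.0160) against 0.25 in experiment 2. The difference from 2iL was -1.46 and passed without DOX exp2_1 (adjusted p = 0.0275), and was -0.63 and did not pass without DOX exp1_2 (adjusted p = 0.321).

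The share of Lefty2 among the reads of both Lefty genes does not depend on library scaling. It was 89.5%, 85.8%, 88.4% and 90.8% in the 2iL libraries, 29.6%, 37.9% and 50.8% without DOX and 66.3%, 64.1% and 80.0% with DOX. The 3 groups did not overlap, with the highest shares in 2iL and the lowest without DOX. The mean share was 88.6 ± 2.11% (SD, n = 4), 39.4 ± 10.7% (n = 3) and 70.1 ± 8.63% (n = 3). The differences were -49.2 percentage points for no DOX against 2iL (exact two-sided permutation test, p = 0.0571, adjusted over 6 tests 0.171), 30.7 for DOX against no DOX (p = 0.10, adjusted 0.20) and -18.5 for DOX against 2iL (p = 0.0571, adjusted 0.171). Each p is the smallest that so few libraries allow. Without DOX exp1_2 the differences of the DOX group were 25.8 points from no DOX and -23.4 from 2iL. The share without DOX rested on 65 to 115 reads per library. Its 95% Wilson interval ran from 22.0% to 38.5% in exp1_1 and from 38.9% to 62.5% in exp2_2, covering counting error only. The 2 longest annotated transcripts are 86.7% identical over aligned bases but 59.6% in their last 300 bases, with a longest shared run of 8 bases there. Alignments to several places, 56.4% to 62.4% of all counts with the summary lines included, were not counted in genes. How many of them came from Lefty genes was not tested.

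**Figure D2:**
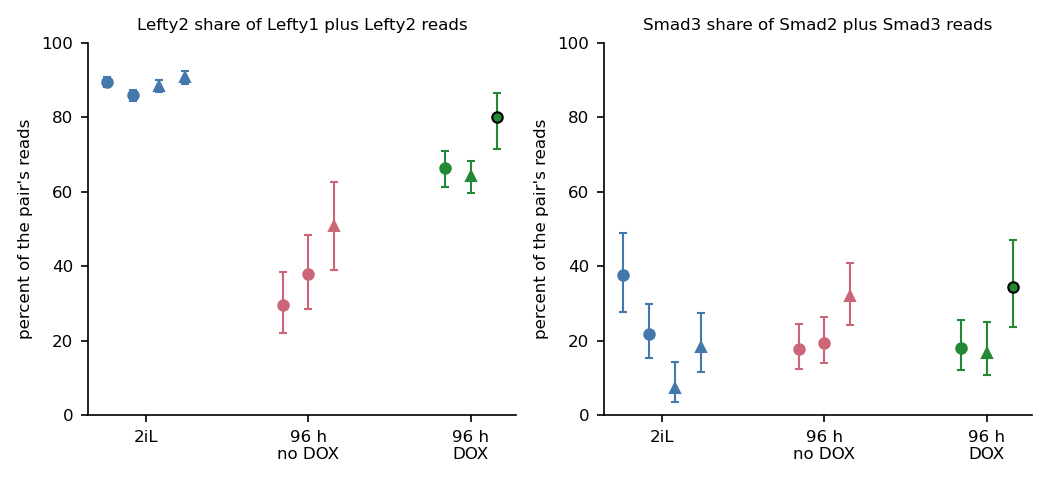
Share of Lefty2 in the reads of Lefty1 plus Lefty2 (left) and of Smad3 in the reads of Smad2 plus Smad3 (right), in percent, by library and group; bars are 95% Wilson intervals, circles experiment 1, triangles experiment 2, the black edge marks DOX exp1_2. The Lefty2 share lay between 85.8% and 90.8% in 2iL, between 29.6% and 50.8% without DOX and between 64.1% and 80.0% with DOX; the Smad3 shares overlapped in all groups.

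Smad2 and Smad3, the transducers that activated receptors phosphorylate, are switched on by phosphorylation, which RNA counts do not show. Smad2 (ENSMUSG00000024563, chromosome 18, 76241580 to 76310963, plus strand) stood at 16.0, 27.5, 27.3 and 26.6 CPM in 2iL, 37.0, 27.0 and 23.8 CPM at 96 h without DOX and 24.0, 26.1 and 29.5 CPM at 96 h with DOX. The groups overlapped, and the 2iL library exp1_1 was lowest. The differences were 0.26 ± 0.30 after 2iL removal, -0.15 ± 0.32 for DOX against no DOX and 0.11 ± 0.30 for DOX against 2iL (adjusted p = 0.619, 0.878 and 0.845), with 95% intervals from -0.32 to 0.84, -0.78 to 0.48 and -0.48 to 0.71. The sign of the last 2 values changed when noDOX exp1_1 (0.06) or 2iL exp1_1 (-0.04) was left out.

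Smad3 (ENSMUSG00000032402, chromosome 9, 63646767 to 63757994, minus strand) was thinly covered, with 7 to 38 reads per library. It stood at 9.66, 7.60, 2.15 and 5.91 CPM in 2iL, 7.93, 6.47 and 11.2 CPM at 96 h without DOX and 5.23, 5.22 and 15.5 CPM at 96 h with DOX. The groups overlapped, with the highest value in DOX exp1_2 and the lowest in 2iL exp2_1. The differences were 0.42 ± 0.54, -0.06 ± 0.59 and 0.37 ± 0.56 (adjusted p = 0.669, 0.978 and 0.718), and the intervals were wide, from -1.21 to 1.10 for DOX against no DOX. Without DOX exp1_2 the last 2 were -0.70 and -0.28, so no direction could be given at this depth. Smad3 took a mean of 21.2 ± 12.6%, 23.0 ± 7.80% and 23.0 ± 9.92% of Smad2 plus Smad3 reads in 2iL, without DOX and with DOX (SD, n = 4, 3 and 3). The largest difference was 1.79 points (exact two-sided permutation test, adjusted p = 1.00 for all 3 differences).

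Smad7 (ENSMUSG00000025880, chromosome 18, 75367529 to 75395935, plus strand), the inhibitory Smad that blocks activated type I receptors, stood at 32.0, 52.3, 45.1 and 37.0 CPM in 2iL, 1.47, 2.80 and 2.06 CPM at 96 h without DOX and 24.7, 22.7 and 42.7 CPM at 96 h with DOX. Only 5 to 13 reads per library were counted without DOX, against 58 to 179 elsewhere, and that group lay below both others without overlap. Smad7 fell by 4.25 ± 0.40 log2 units after 2iL removal (19.0-fold, adjusted p = 2.05e-07). With DOX it was 13.5-fold higher than without (3.75 ± 0.41, adjusted p = 2.22e-05), with 3.92 and 3.45 within experiments 1 and 2 and 3.44 without DOX exp1_2. DOX and 2iL libraries overlapped, and their difference of -0.50 ± 0.32 did not pass (adjusted p = 0.317, 95% interval -1.12 to 0.13).

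Skil (ENSMUSG00000027660, chromosome 3, 31095058 to 31122577, plus strand) encodes SnoN, a co-repressor that binds Smads and that the pathway itself induces. It stood at 13.0, 13.5, 12.3 and 17.0 CPM in 2iL, 41.4, 31.7 and 33.2 CPM at 96 h without DOX and 46.1, 36.0 and 45.7 CPM at 96 h with DOX. All 6 libraries at 96 h lay above the 4 in 2iL, and the groups with and without DOX overlapped. Skil rose by 1.35 ± 0.28 after 2iL removal (adjusted p = 0.00128) and was higher by 1.61 ± 0.28 with DOX than in 2iL (adjusted p = 3.65e-04). The difference between DOX and no DOX was 0.26 ± 0.29 (adjusted p = 0.726, 95% interval -0.31 to 0.83). Without DOX exp1_2 the difference from 2iL was 1.56 (adjusted p = 8.75e-04). Of the 4 targets among the 9 genes that restrain the signal, Lefty1, Lefty2 and Smad7 were thus lower after 2iL removal and Skil was higher.

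**Figure D3:**
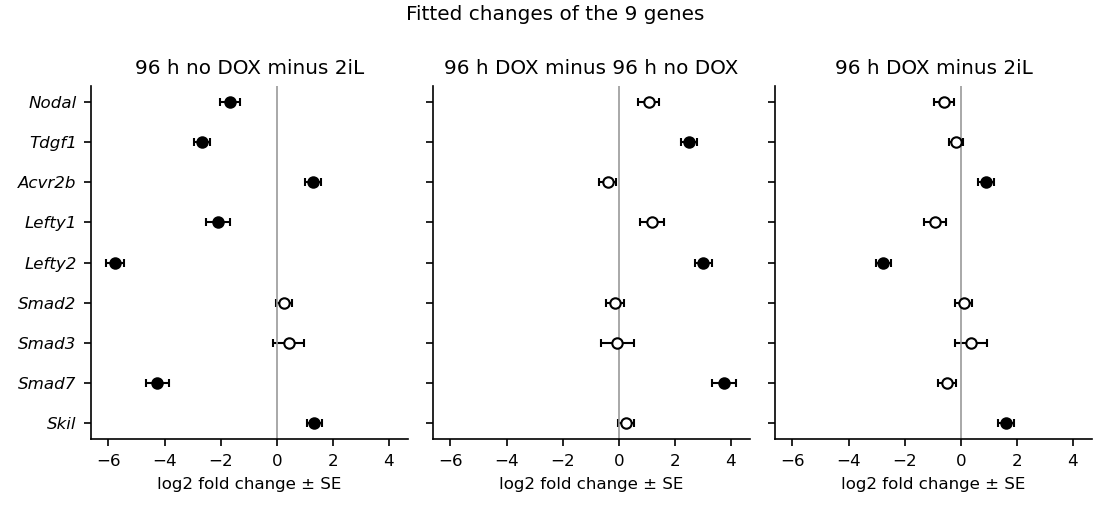
Log2 fold change ± SE (x axis) of the 9 genes (y axis) in the 3 comparisons; filled points passed edgeR's test (adjusted p below 0.05), open points did not. The filled points are 7 after 2iL removal, 3 for DOX against no DOX and 3 for DOX against 2iL.

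In a wider list of 56 genes of the Nodal, activin and TGF-beta pathways, which includes the 9, 40 could be tested. After 2iL removal 2 were higher and 9 lower, with DOX against no DOX 5 were higher and 0 lower, and with DOX against 2iL 3 were higher and 2 lower. Leaving out the 9, 31 were tested. Of these, 0 were higher and 4 lower after 2iL removal (12.9%, beside 20.4% of all tested genes). For DOX against no DOX, 2 were higher (6.45%, beside 3.10%), and for DOX against 2iL 1 was higher and 1 lower (6.45%, beside 16.7%). The medians of these 31 genes were -0.23, 0.15 and 0.08, beside 0.00, -0.02 and 0.02 for all tested genes.

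Among ligands, 2 of 5 tested were lower after 2iL removal, beside 8.90% of all tested genes: Nodal and Gdf3, a related ligand of the epiblast that also uses Tdgf1. Gdf3 stood at 205 ± 32.9, 108 ± 37.0 and 77.4 ± 25.4 CPM in 2iL, without DOX and with DOX (mean ± SD, n = 4, 3 and 3). It fell by 0.91 ± 0.27 log2 units after 2iL removal (adjusted p = 0.0174), a call lost without 2iL exp1_1 (0.0520), 2iL exp2_2 (0.0509), noDOX exp1_1 (0.0748) or noDOX exp2_2 (0.111). Gdf3 was also lower with DOX than in 2iL (-1.39 ± 0.27, adjusted p = 0.00125; -1.17 without DOX exp1_2), and DOX against no DOX gave -0.47 ± 0.28 (adjusted p = 0.456). Its 95% interval for DOX against no DOX ran from -1.03 to 0.08.

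Of the proprotein convertases, which cut the Nodal precursor, 2 of 3 were tested. Pcsk6, also called PACE4, stood at 38.3, 36.3, 39.3 and 26.6 CPM in 2iL, 8.22, 6.47 and 5.58 CPM at 96 h without DOX and 36.6, 72.2 and 66.3 CPM at 96 h with DOX. Libraries without DOX lay below all others. Pcsk6 fell by 2.37 ± 0.33 log2 units after 2iL removal (adjusted p = 2.09e-05) and was 8.56-fold higher with DOX than without (3.10 ± 0.35, adjusted p = 2.31e-05; 2.81 in experiment 1, 3.69 in experiment 2 and 3.00 without DOX exp1_2). Against 2iL the DOX group gave 0.72 ± 0.29 (adjusted p = 0.0944), which passed without DOX exp1_1 (adjusted p = 0.0310).

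Among receptors and co-receptors Acvr2b and Tdgf1 were the 2 of 5 tested that were called after 2iL removal, 1 in each direction. In that comparison 20.4% of all tested genes were called. Of the 4 extracellular antagonists tested, Lefty1 and Lefty2 were the 2 called in it. Of the 6 Smads and partners tested, only Rnf111 was called in it (16.7%). Rnf111, or Arkadia, is a ubiquitin ligase that removes Smad7 and SnoN protein. It fell by 1.18 ± 0.38 log2 units after 2iL removal (adjusted p = 0.0309). The call was lost without any single 2iL library, noDOX exp1_2 or noDOX exp2_2. In these fits adjusted p ran from 0.0510 (without noDOX exp1_2) to 0.142 (without noDOX exp2_2). The 4 of 10 such fits that kept the call left out noDOX exp1_1 or a DOX library, which is outside this comparison. Within experiment 1 Rnf111 did not pass (-0.88, adjusted p = 0.263).

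Of the 11 intracellular inhibitors, all tested, 1 was higher (Skil) and 2 lower (Smad7 and Pmepa1) after 2iL removal. That is 27.3%, beside 20.4% of all tested genes. Smad7 and Pmepa1 were higher with DOX than without (18.2%, beside 3.10% called). Pmepa1 encodes a membrane protein that keeps Smad2 and Smad3 from the receptor. It stood at 31.0, 27.5, 22.4 and 19.2 CPM in 2iL, 3.52, 5.39 and 11.5 CPM at 96 h without DOX and 29.5, 28.6 and 65.6 CPM at 96 h with DOX. The libraries without DOX lay below all others, and DOX exp1_2 was the highest of the 10. Pmepa1 fell by 1.89 ± 0.42 log2 units after 2iL removal (adjusted p = 0.00239). With DOX it was higher by 2.57 ± 0.44 (adjusted p = 0.00176), and by 2.10 without DOX exp1_2 (adjusted p = 0.00720).

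Among the other targets, 7 of 10 were tested. Foxa2, a forkhead factor of endoderm and the anterior streak, had 10, 61 and 13 reads in DOX exp2_1, exp1_1 and exp1_2 and at most 10 in any other library. It was higher with DOX than in 2iL (3.08 ± 0.98, adjusted p = 0.0347). Of the 10 fits with 1 library left out, which include those without a noDOX library outside this comparison, 5 did not make the call. Nor did the fits with a replicate block, by experiment (2.66, adjusted p = 0.0959) or by experiment and number (2.64, adjusted p = 0.141). The 5 were the fits without 2iL exp1_1 (0.0598), exp1_2 (0.0902) or exp2_2 (0.0760) and without DOX exp1_1 (0.193) or exp1_2 (0.0709). For DOX against no DOX Foxa2 gave 3.31 ± 1.08 (adjusted p = 0.116) and did not pass. It passed there in 3 of 20 alternative fits: no filter on low counts (0.0282), DESeq2 (0.0354) and limma on log2(CPM + 1) (0.0440).

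**Figure D4:**
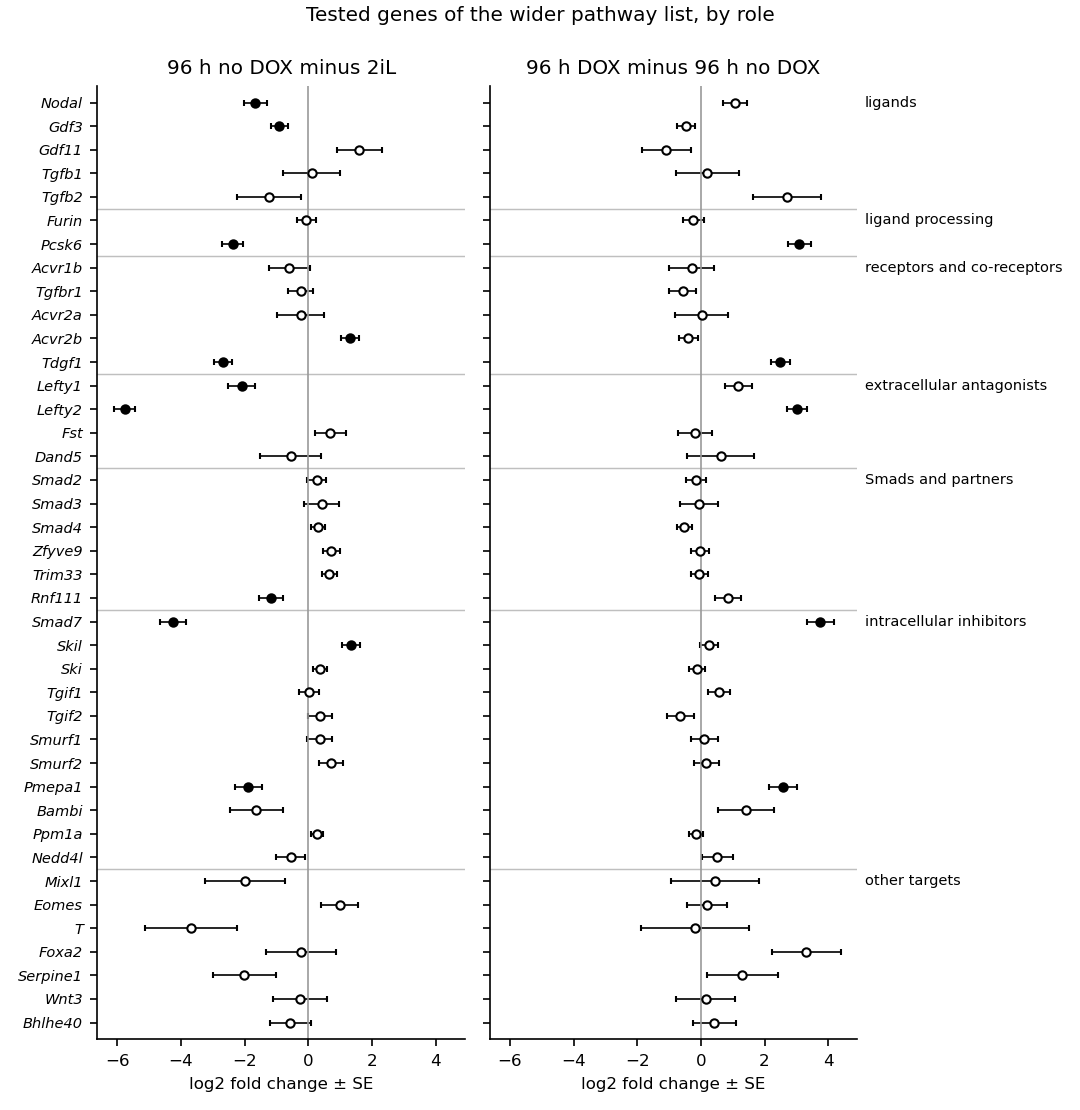
Log2 fold change ± SE (x axis) of the 40 tested genes of the wider list (y axis, grouped by role) after 2iL removal (left) and with DOX against no DOX (right); filled points passed edgeR's test. On the right the filled points are Pcsk6, Tdgf1, Lefty2, Smad7 and Pmepa1, and all 5 lie above 0.

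The genes whose level followed each of 5 members most closely over the 10 libraries were ranked by Pearson's r of log2(CPM + 1), among 7707 genes with a mean of at least 10 CPM. The points share group, library and scaling, so r is a description. For Nodal the closest was Lefty1 (r = 0.961), followed by Cep55 (0.950) and Pdss1 (0.946). For Lefty1 they were Nodal (0.961), Syt9 (0.959) and Vhl (0.951), whereas Lefty2 ranked number 39 with 0.872. For Lefty2 they were Cnpy1 (0.988), Tcl1 (0.986) and Hk2 (0.985). For Tdgf1 they were Triml2 (0.979), Hsd17b14 (0.974) and Bmp4 (0.967), and for Smad7 Slc25a39 (0.977), Gna13 (0.971) and Acaa2 (0.970). Smad7 and Tdgf1 ranked number 10 for each other (r = 0.956). In these libraries Lefty1 thus lay closer to Nodal than to its paralog Lefty2, and Tdgf1 closer to Smad7 than to Nodal (r = 0.699).

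Genes within 100 kb of Lefty1, Lefty2, Nodal and Tdgf1 were examined next. Of the 8 genes examined around Lefty2, 5 were tested, Lefty1 among them. Tmem63a, 3944 bases beyond Lefty1, fell by 1.26 ± 0.43 log2 units after 2iL removal (adjusted p = 0.0420), a call lost without 2iL exp1_1 (0.0572), 2iL exp1_2 (0.125), 2iL exp2_1 (0.0724), noDOX exp1_1 (0.111) or noDOX exp1_2 (0.186). It was lost too with library totals in place of TMM (-1.21, adjusted p = 0.0519) and with experiment and number as a replicate block (-1.40, adjusted p = 0.0608). Sde2, H3f3a and Ephx1 passed in none of the 3 comparisons.

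Around Tdgf1, 3 of 10 genes were tested. Lrrc2, which lies 5387 bases away on the opposite strand, stood at 16.4 ± 2.41, 4.88 ± 0.447 and 23.5 ± 6.45 CPM, and moved in the same directions as Tdgf1. It fell by 1.74 ± 0.37 log2 units after 2iL removal (adjusted p = 0.00174) and was higher with DOX than without by 2.27 ± 0.39 (adjusted p = 0.00176; 0.0699 within experiment 1), and by 2.42 without DOX exp1_2. Against 2iL the DOX group gave 0.53 ± 0.34 (adjusted p = 0.315). Prss50, a protease gene 74974 bases away, rose by 2.95 ± 0.51 after 2iL removal (adjusted p = 2.28e-04), gave 1.48 ± 0.46 with DOX against no DOX (adjusted p = 0.0895), and was higher by 4.43 ± 0.51 with DOX than in 2iL (adjusted p = 3.64e-06; 4.62 without DOX exp1_2). Als2cl passed in no comparison. Of the 3 tested genes around Nodal, Pald1, Eif4ebp2 and Lrrc20, none passed in any comparison; Eif4ebp2, whose end lies 3153 bases from Nodal, gave 0.13 ± 0.22 after 2iL removal.

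**Figure D5:**
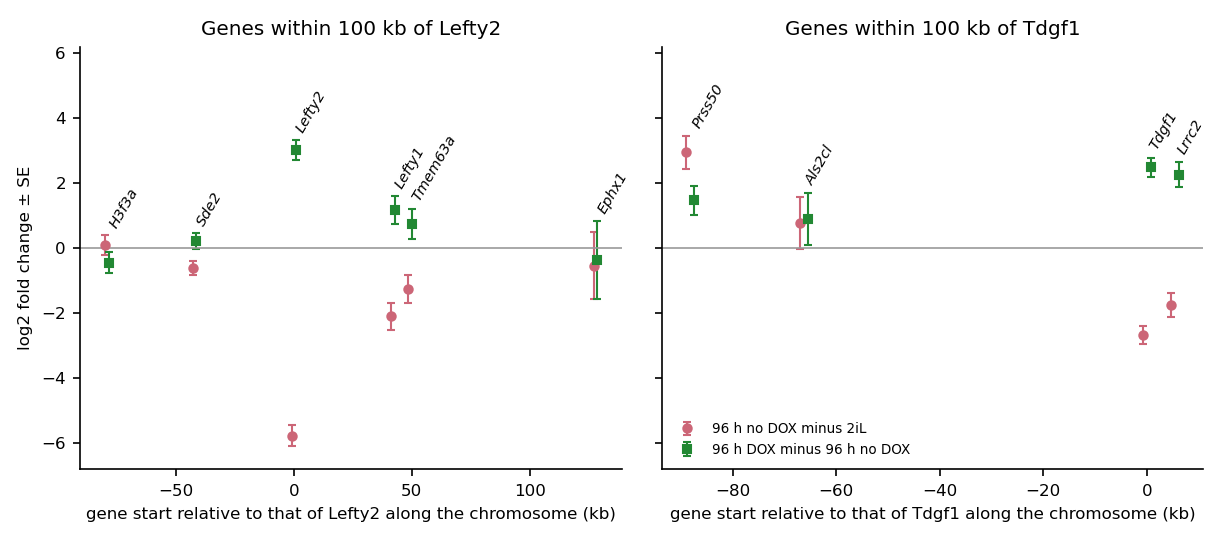
Log2 fold change ± SE (y axis) of Lefty2 (left), Tdgf1 (right) and the tested genes within 100 kb, by distance between gene starts (x axis, kb; the 2 points of a gene are set slightly apart), after 2iL removal (circles) and with DOX against no DOX (squares). The values were -1.74 and 2.27 for Lrrc2 beside Tdgf1, and -1.26 and 0.76 for Tmem63a to the right of Lefty2.

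Markers of the cell types that such cultures can hold moved with the groups, and their part in the results above was not tested. Sums are CPM without TMM scaling, as ranges in 2iL, without DOX and with DOX. Naive ES cell markers (10 genes) summed to 2370 to 2748, 214 to 278 and 662 to 1156. Klf4, Klf5, Tfcp2l1, Tbx3 and Zfp42 were higher in every DOX library than in any library without DOX. Klf5 alone stood at 232, 309 and 663 CPM in DOX exp1_1, exp2_1 and exp1_2. Nanog, Klf2, Prdm14, Dppa3 and Esrrb, the gene of the construct, overlapped between the groups with and without DOX. General pluripotency markers (6 genes) summed to 895 to 1054, 1196 to 1393 and 1587 to 1931. In every library without DOX, Utf1 and Lin28a were higher than in any of 2iL, and Sox2 and Dppa5a were lower. Pou5f1 and Sall4 overlapped between these groups. Formative epiblast markers (6 genes) summed to 223 to 267, 2690 to 3007 and 1886 to 2718. Dnmt3b, Fgf5 and Sox3 were lower in every DOX library than in any library without DOX, and Dnmt3a was higher. Otx2 and Pou3f1 overlapped between the groups with and without DOX. The sum of primitive and visceral endoderm markers (18 genes) was highest with DOX, at 34.8 to 75.5, 102 to 124 and 553 to 871. Its largest parts with DOX were Col4a1 (158 to 239 CPM) and Lamb1 (144 to 190 CPM, against 69.6 to 90.7 CPM without DOX). Gata6 (47.8 to 66.2 CPM), Foxq1 (52.6 to 96.0 CPM) and Pdgfra (19.3 to 88.5 CPM) were also higher in every DOX library than in any other. So were Gata4, Sox17, Sox7, Col4a2, Cubn, Amn and Dab2, while Lama1 overlapped with 2iL. Afp was at 0 in all libraries, Sox7 and Ttr in 2iL and without DOX, Apoa1 in 2iL, and Foxq1, Cubn and Hnf4a without DOX. With DOX, Apoa1, Ttr and Hnf4a reached at most 0.240, 3.19 and 2.39 CPM, and Hhex (at most 2.64 CPM) was lower than in 2iL (3.35 to 12.4 CPM). Anterior visceral endoderm markers (7 genes, Lefty1 among them) summed to 71.5 to 129, 254 to 321 and 254 to 401. Most of the sum at 96 h was Otx2, also among the formative epiblast markers, at 14.8 to 40.4, 238 to 305 and 217 to 342 CPM. Hhex and Lefty1 were lower in every library without DOX than in any of 2iL. Cer1, which defines that tissue and is itself a Nodal antagonist, was at 0 in 2iL and without DOX and had 2 reads in 1 DOX library. Lhx1 of the same list was at 0 in 2iL. The sum of neural markers (6 genes) was highest without DOX, at 32.6 to 46.3, 275 to 421 and 48.7 to 98.3, with Neurog2 at 0 with DOX. Sox3, also among the formative epiblast markers, stood at 201 to 362 CPM without DOX and 17.5 to 52.5 CPM with DOX. Nes was also higher in every library without DOX than in any with it. Sox1, Pax6, Zic1 and Neurog2 overlapped between these groups. Primitive streak and mesoderm markers (8 genes) summed to 9.76 to 111, 10.6 to 34.8 and 13.6 to 30.9, and trophoblast markers (7 genes) to 104 to 131, 78.7 to 112 and 59.8 to 105, with Elf5 at 0 throughout. Fibroblast markers (8 genes) summed to 1.82 to 9.75, 20.7 to 25.6 and 14.4 to 2106, with Postn at 0 in 2iL and without DOX. Without DOX exp1_2, which holds that last value, Smad7, Lefty2 and Tdgf1 were called higher with DOX than without, by 3.44, 3.10 and 2.26 log2 units.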

How the data were processed

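The authors deposited whole-number read counts per Ensembl gene for 10 libraries. Per the submitters' processing notes, bcl2fastq, STAR 2.6.0a and HTSeq were used with build mm10. Which annotation release and which strand setting the counting used is not given in the sources at hand. Per the labels' protocols, polyA RNA was read at its 3′ ends (digital gene expression). The 5 HTSeq summary lines held 62.7% to 68.4% of all counts, genes and summary lines together, and were taken off. A symbol was matched to 30934 of 31053 IDs. The deposited CPM table was not used.

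Genes were kept with filterByExpr (minimum count 10), scaled by TMM and fitted to all 10 libraries with edgeR 4.0.16 (R 4.3.3; robust quasi-likelihood test, contrasts of group means, Benjamini-Hochberg adjustment over 11215 genes). The script was tested on simulated data. Shares were compared with exact permutation tests (scipy 1.17.1) and Lefty transcripts were aligned with Biopython 1.88.

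The 9 genes, the pathway list, the marker lists (naive, general pluripotency, formative, endoderm, anterior endoderm, streak, neural, trophoblast, fibroblast) and the tests were chosen with earlier results of these data known. Of the pathway list, 2 genes are not reported here and are left out of its counts. Beside the 9, genes were named by rule: up to 2 called genes per role, direction and comparison, the 3 genes most like each of 5 members, and tested genes within 100 kb. That ranking left out numbered and clone-named genes. Alternatives were other filters, scalings and tests (limma 3.58.1, DESeq2 1.42.0), experiment 1 alone, replicate blocks and leaving out each library.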

Additional observations from a re-analysis of the deposited data

Results flagged for a closer look

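Smad2 in 2iL was the only one of 17 genes examined whose 4 libraries held a value far from the rest. The library exp1_1 stood at 16.0 CPM (48 reads), and the other 3 at 26.6 to 27.5 CPM (72 to 94 reads). The gap between the lowest value and the next took a fraction of 0.924 of the group's whole range, above Dixon's 95% critical value for 4 samples. Chance alone flags about 1 group in 20. The groups of 3 libraries were not examined in this way.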

How the results depend on the processing

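Of 567 repeated fold changes of the 9 genes, 541 kept direction and side of the threshold, as did 447 of 481 of the other named genes. Within experiment 1 alone, with 2 libraries per group, 1226, 108 and 926 genes were called after 2iL removal, for DOX against no DOX and for DOX against 2iL. For DOX against no DOX, 564 genes were called with no filter on low counts, 212 with only those groups fitted, 563 with DESeq2 and 161 to 358 when 1 library was left out. The lowest values came without noDOX exp1_1 (161) and without noDOX exp2_2 (181). Members called in that comparison numbered 5 with no filter, when Nodal (adjusted p = 0.0330) and Lefty1 (0.0242) passed, and 3 to 4 without 1 library. Against 2iL they numbered 2 to 5, with 5 without DOX exp2_1. Lefty1 passed against 2iL with no filter (adjusted p = 0.0221).

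Of the 8 pairs of libraries of different groups that share an experiment and a number, 1 had deviations from the group means correlated above 0.1 (-0.101 to 0.227, median 0.023), so the numbers were not taken as pairs. Over all 17 pairs that share an experiment the correlations were -0.169 to 0.227. With the experiment as a replicate block 2244, 347 and 1815 genes were called, and no call of the 9 genes changed. With experiment and number as a replicate block 159 genes were called for DOX against no DOX; against 2iL, Lefty1 passed (-1.26, adjusted p = 0.0412) and Acvr2b did not (0.77, adjusted p = 0.0736).

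Small values changed sign. Tdgf1 against 2iL ran from -0.42 to 0.11 (without DOX exp1_1) when 1 library was left out. Smad2 ran from -0.28 to 0.056 (without noDOX exp1_1) for DOX against no DOX and from -0.044 (without 2iL exp1_1) to 0.20 against 2iL. Smad3 after 2iL removal was -0.27 in experiment 1. Smad3 for DOX against no DOX was 0.053 with library totals, 0.46 in experiment 1, 0.38 with the experiment and number block, and ran from -0.70 to 0.24 without 1 library, above 0 without noDOX exp2_2, DOX exp1_1 or DOX exp2_1. Smad3 for DOX against 2iL ran from -0.28 (without DOX exp1_2) to 0.67. The differences in Smad3 share ran from -2.86 to 7.26, -5.70 to 4.49 and -3.92 to 7.28 points without 1 library, and the middle one was -1.27 with pooled reads. Foxa2 against 2iL and Tmem63a after 2iL removal lost their calls under the blocks named beside them. The cause was not tested, beyond the fewer libraries of some fits.

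Depth limits Smad3 (7 to 38 reads per library), Smad7 without DOX (5 to 13) and Foxa2, and the exact tests of shares could not reach an adjusted p below 0.05. Without 1 library, p-values of a 96 h group rest on 2 libraries.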

Other observations

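Levels of 4 genes known from the primitive streak were set side by side in the 2iL libraries of the 2 experiments, and were picked after their values were seen. T (Brachyury) stood at 4.33 and 1.46 CPM in experiment 1 and at 70.6 and 62.5 CPM in experiment 2. Mixl1 stood at 0.666 and 0 CPM in experiment 1, and at 8.91 and 8.87 CPM in experiment 2. Gsc stood at 0.999 and 0.877 CPM against 11.4 and 3.70 CPM. Eomes did not separate the experiments, with 5.99 and 3.80 CPM against 2.15 and 8.13 CPM. Nodal (68.9 and 86.9 against 62.04 and 62.5 CPM) and Lefty2 (636 and 539 against 418 and 353 CPM) were lower in both libraries of experiment 2, as was Lefty1 (74.9 and 89.2 against 54.7 and 35.9 CPM). The difference between experiments was not tested; each held 2 such libraries.

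Several TGF-beta and activin genes were high only in the 96 h DOX library exp1_2, the library with the highest sum of fibroblast markers. Inhba, the activin A subunit, stood at 34.6 CPM there and at 0.431 to 2.22 CPM in the other 9 libraries. The receptor Tgfbr2 stood at 33.2 CPM, against 0 to 3.99 CPM elsewhere. Tgfb2 stood at 20.6 CPM (0.294 to 4.91 elsewhere), and Tgfb3 at 5.89 CPM (0 to 0.475 elsewhere). The 4 genes were picked after their values were seen, and their relation to the fibroblast markers was not tested.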
